A study of Mus musculus with 18 samples.

Results

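The genes described here encode 10 enzymes of serine, glycine and folate metabolism: Phgdh, Psat1, Psph, Shmt1, Shmt2, Mthfd1, Mthfd2, Mthfd1l, Aldh1l2 and Gldc. They were chosen by gene symbol from the deposited expression tables, which list 14804 genes in all, and all 10 were present in the tables of all 3 cell types. The tables hold bulk RNA-seq of mouse ESCs (line E14, a model of the epiblast), TSCs (a model of the trophoblast) and XEN cells (a model of the primitive endoderm). Oxygen was 20% in the normoxic cultures and 2% in the hypoxic ones, which were sampled at day 2 and day 7. Each condition has 2 replicates, so a cell type has 6 libraries and the whole series 18. The labels name no line for TSCs or XEN cells, and no genetic change or drug was part of any of these groups. The media differed between the cell types. Those of ESCs and XEN cells were supplemented with non-essential amino acids, TSCs were grown on feeder cells, and the medium of XEN cells had been conditioned on fibroblasts, so that cell type and medium cannot be told apart.

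Serine is made from a glycolytic intermediate in 3 steps, by PHGDH, PSAT1 and PSPH. Serine hydroxymethyltransferases then split serine into glycine and a one-carbon unit, which is carried by folate. Mitochondria turn this unit into formate through SHMT2, MTHFD2 and MTHFD1L, and the cytosol reloads formate onto folate through MTHFD1 for the synthesis of purines, thymidylate and methionine. GLDC starts the glycine cleavage system, which draws a second one-carbon unit from glycine, and mouse ESCs are known for their use of the related breakdown of threonine through TDH.

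The libraries held between 35592641 and 75204029 reads, recovered from the deposited values. A member had between 49 reads (Aldh1l2 in TSCs) and 50168 reads (Psat1 in ESCs) in a library, and all 10 passed the filter on low values in each cell type. Each cell type expressed its defining markers. The summed TPM (transcripts per 1000000) of 6 ESC markers was 6442 to 7300 in ESCs. That of 6 TSC markers was 653 to 1209 in TSCs, and that of 6 XEN markers was 2302 to 2824 in XEN cells. Pou5f1 was not listed in TSCs, nor were Cdx2 and Eomes in XEN cells. The lists were not all exclusive to their cell type. The sum of the ESC markers was 248 to 1289 TPM in TSCs, with Sox2 at 129 to 1104. In XEN cells it was 624 to 1194 TPM, mostly Klf4, which had 623 to 1193 there and 326 to 442 in ESCs. The sum of the TSC markers was 129 to 188 TPM in ESCs and at most 6.36 in XEN cells. That of the XEN markers was at most 21.5 TPM outside XEN cells. Of 8 feeder markers such as Col1a1, 8 were listed in TSCs, where their sum was 1844 and 260 TPM in normoxia, 196 and 947 at day 2 and 425 and 254 at day 7. In ESCs that sum lay between 23.8 and 40.2 TPM, and in XEN cells 1 of the 8 was listed, at or below 0.272 TPM. The summed TPM of 8 hypoxia genes such as Slc2a1 and Bnip3 was 1381 and 1474 in normoxic ESCs and between 2382 and 3414 in hypoxia. In TSCs it was 1483 and 1484 in normoxia, 3312 and 3436 at day 2 and 1888 and 2140 at day 7, and in XEN cells, where 7 of the 8 were listed (Car9 was not), it was 1353 and 1247, 1847 and 2379, and 1627 and 2311.

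The deposited TPM were scaled by the distance between the start and the end of a gene, introns included, so levels are compared between genes only after rescaling by exon length. That distance was 43.7 times the exon length for Mthfd1l and 1.71 times for Shmt2. On the exon-length scale in normoxic ESCs, Mthfd1 (461 ± 19.8 TPM, SD, n = 2), Psat1 (448 ± 12.0) and Shmt2 (429 ± 38.5) were highest, and their libraries overlapped. Gldc (271 ± 12.0) and Shmt1 (265 ± 7.08) came next and overlapped each other, followed by Phgdh (229 ± 25.7). Mthfd1l (164 ± 4.80) and Mthfd2 (163 ± 2.56) overlapped, and Psph (45.1 ± 5.57) and Aldh1l2 (3.26 ± 0.439) were lowest. In normoxic TSCs the order began with Shmt2 (195 ± 14), Mthfd1 (155 ± 17.1) and Shmt1 (140 ± 37.6), of which Mthfd1 and Shmt1 overlapped, and Gldc (32.1 ± 14.9) was the eighth of 10. In normoxic XEN cells Psat1 (263 ± 49.3), Mthfd1 (258 ± 10.5) and Phgdh (219 ± 79.8) led, and each of the first 6 genes in the order overlapped the next. Psph and Aldh1l2 were the 2 lowest in all 3 cell types.

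ESCs held the highest normoxic mean of deposited TPM for 9 of the 10 genes, the exception being Phgdh (63.1 in ESCs and 65.9 in XEN cells). On the exon-length scale the mean of Phgdh was higher in ESCs (229 and 219). TSCs were lowest for 8 of the 10, with Shmt1 and Shmt2 lowest in XEN cells. The ratio of the ESC to the TSC mean ran from 1.79 for Shmt1 to 8.03 for Gldc, and that of the ESC to the XEN mean from 0.958 for Phgdh to 2.13 for Shmt2. For 6 genes (Psat1, Shmt1, Shmt2, Mthfd1, Mthfd1l and Gldc) all 6 ESC libraries stood above all libraries of the other cell types. For 5 genes (Phgdh, Psat1, Psph, Mthfd2 and Mthfd1l) all 6 TSC libraries stood below all others. The tables were normalized separately, so these differences were not tested. The shares of all genes with the same order of cell types were not computed, so these counts do not set the enzymes apart from other genes.

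**Figure D1:**
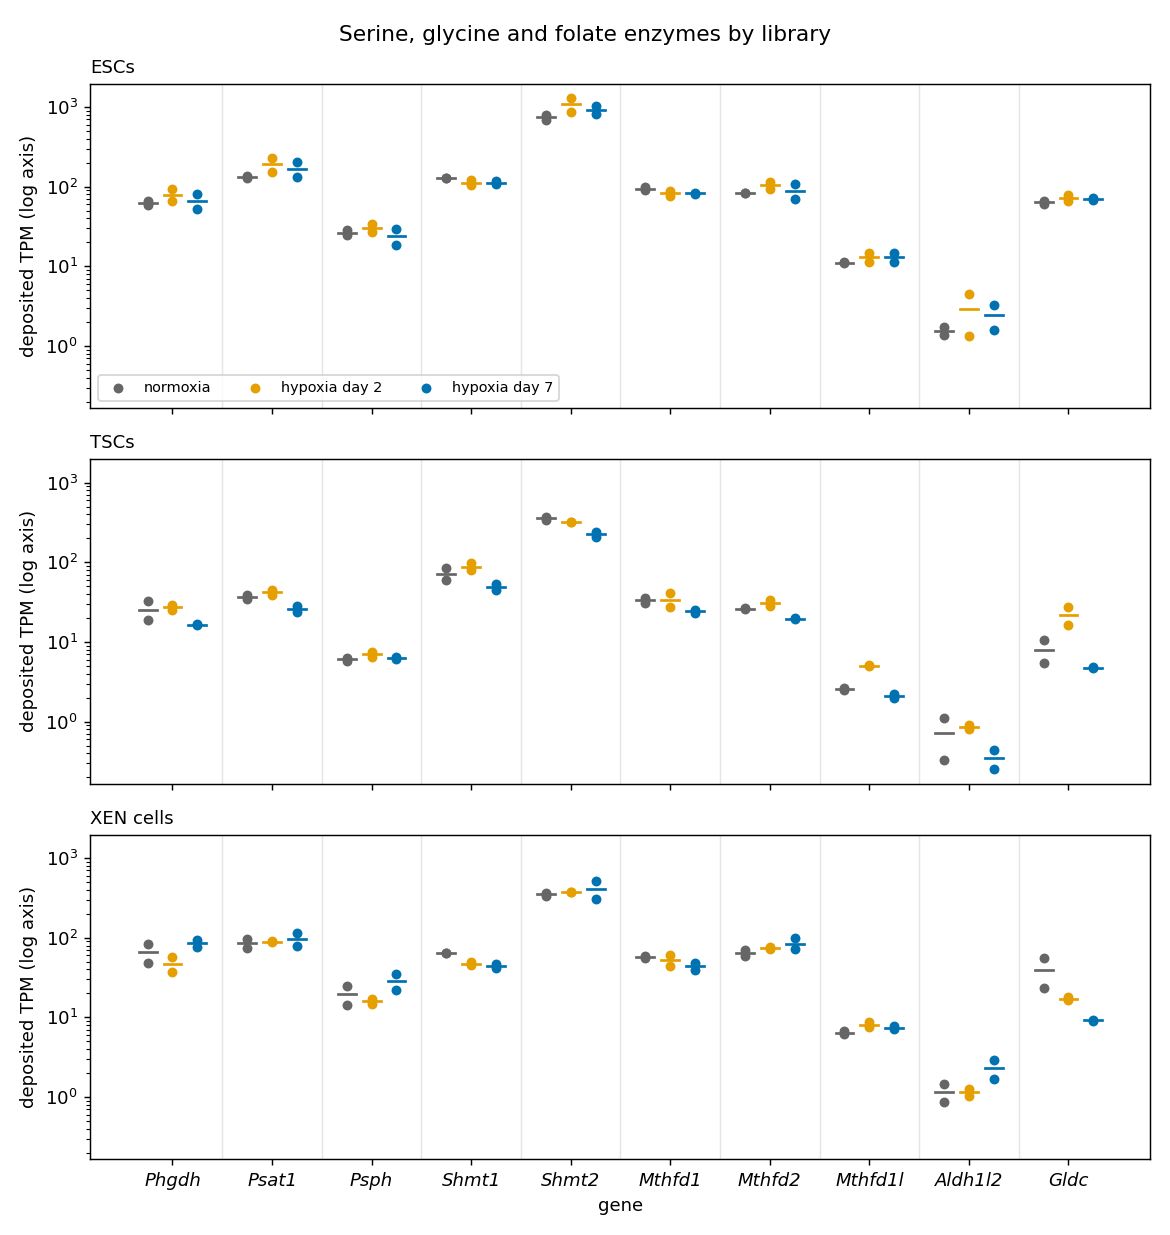
Deposited TPM (log axis) of the 10 enzyme genes, with 1 panel per cell type, a point for each library and a bar for the mean of the 2 replicates, coloured by condition. For Gldc, in TSCs its day 2 libraries (27.6 and 16.2 TPM) stand above the others, and in XEN cells its day 7 libraries (9.27 and 9.05 TPM) stand below the others.

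Serine synthesis showed no DE gene when hypoxia was compared with normoxia. Here DE means a Benjamini-Hochberg adjusted p at or below 0.1 and a fold change above 1.5, from limma on log2(TPM + 0.5) over all tested genes of a cell type. By the same measure, 0 of 8 hypoxia genes were DE against normoxia in ESCs on day 2 and 1 on day 7. In TSCs 3 of 8 were DE on day 2 and 0 on day 7, and in XEN cells 0 and 1 of 7. A gene that was not DE may therefore have changed all the same. Phgdh (chr3:98313170-98339990, minus strand in GRCm38), the first and committed enzyme of the pathway, had 59.0 and 67.2 TPM in normoxia, 65.8 and 92.8 at day 2 and 81.7 and 52.6 at day 7 in ESCs. In TSCs it had 32.2 and 18.6 TPM in normoxia, 29.4 and 24.9 at day 2 and 16.2 and 16.6 at day 7. In XEN cells it had 48.9 and 82.8 TPM in normoxia, 36.7 and 57.9 at day 2 and 92.7 and 76.9 at day 7. Its day 7 libraries lay below all others in TSCs, whereas in XEN cells they lay above both day 2 libraries. Psat1 (chr19:15904678-15947337, minus strand), the transaminase of the second step, had 137 and 128 TPM in normoxia, 155 and 227 at day 2 and 205 and 133 at day 7 in ESCs. Psat1 in TSCs had 38.7 and 34.2 TPM in normoxia, 44.9 and 38.8 at day 2 and 28.4 and 23.7 at day 7. In XEN cells Psat1 had 73.7 and 96.2 TPM in normoxia, 90.3 and 87.4 at day 2 and 116 and 78.5 at day 7. In ESCs both day 2 libraries exceeded normoxia, and in TSCs both day 7 libraries were below the other 4. Psph (chr5:129765558-129787449, minus strand), the phosphatase that releases serine, had 24.6 and 28.4 TPM in normoxia, 27.1 and 33.9 at day 2 and 29.4 and 18.5 at day 7 in ESCs. In TSCs Psph had 6.34 and 5.72 TPM in normoxia, 7.46 and 6.46 at day 2 and 6.08 and 6.42 at day 7. Psph in XEN cells had 14.4 and 24.7 TPM in normoxia, 14.8 and 17.1 at day 2 and 35.1 and 22.0 at day 7. The 6 values for Psph in TSCs spanned a narrow range, while in XEN cells day 7 replicate 1 stood highest.

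The hydroxymethyltransferase genes encode a cytosolic and a mitochondrial enzyme. Shmt1 (chr11:60788104-60811718, minus strand), the cytosolic enzyme, had 129 and 130 TPM in normoxia, 121 and 105 at day 2 and 118 and 108 at day 7 in ESCs. In TSCs Shmt1 had 59.2 and 85.0 TPM in normoxia, 97.3 and 79.4 at day 2 and 45.5 and 52.7 at day 7. Shmt1 in XEN cells had 64.1 and 64.4 TPM in normoxia, 46.1 and 49.0 at day 2 and 42.3 and 47.0 at day 7. The hypoxic libraries lay below the normoxic ones in ESCs and XEN cells, and in TSCs day 7 alone lay below. Shmt2 (chr10:127517123-127522444, minus strand), the mitochondrial enzyme, had 804 and 688 TPM in normoxia, 880 and 1287 at day 2 and 1024 and 831 at day 7 in ESCs. In TSCs Shmt2 had 343 and 371 TPM in normoxia, 322 and 320 at day 2 and 242 and 205 at day 7. Shmt2 in XEN cells had 333 and 369 TPM in normoxia, 377 and 376 at day 2 and 514 and 304 at day 7. All 4 hypoxic ESC libraries were above normoxia for Shmt2, and all 4 hypoxic TSC libraries were below it.

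Among the folate enzymes, Mthfd1 (chr12:76255298-76319803, plus strand), the cytosolic trifunctional enzyme, had 98.6 and 90.1 TPM in normoxia, 89.5 and 75.9 at day 2 and 81.8 and 83.2 at day 7 in ESCs. In TSCs Mthfd1 had 31.2 and 35.7 TPM in normoxia, 40.6 and 27.5 at day 2 and 23.2 and 25.5 at day 7. Mthfd1 in XEN cells had 55.9 and 59.2 TPM in normoxia, 44.8 and 60.6 at day 2 and 39.9 and 48.9 at day 7. Hypoxic ESC libraries were below the normoxic ones for this gene. Mthfd2 (chr6:83305691-83325908, minus strand), the mitochondrial dehydrogenase and cyclohydrolase, had 83.6 and 83.1 TPM in normoxia, 94.4 and 115 at day 2 and 108 and 70.6 at day 7 in ESCs. In TSCs Mthfd2 had 26.6 and 25.9 TPM in normoxia, 33.2 and 28.2 at day 2 and 19.8 and 19.3 at day 7. Mthfd2 in XEN cells had 59.4 and 70.0 TPM in normoxia, 72.5 and 75.6 at day 2 and 98.1 and 71.3 at day 7. All 4 hypoxic XEN libraries were above normoxia for Mthfd2, and both day 7 TSC libraries were below the other 4. Mthfd1l (chr10:3973118-4167081, plus strand), which releases formate in mitochondria, had 11.0 and 11.2 TPM in normoxia, 11.3 and 14.7 at day 2 and 14.6 and 11.5 at day 7 in ESCs. In TSCs Mthfd1l had 2.48 and 2.64 TPM in normoxia, 4.93 and 5.07 at day 2 and 2.23 and 1.99 at day 7. Mthfd1l in XEN cells had 6.70 and 6.22 TPM in normoxia, 7.59 and 8.68 at day 2 and 7.76 and 7.13 at day 7. In TSCs the 2 day 2 libraries of Mthfd1l stood apart from the other 4. Aldh1l2 (chr10:83487450-83534140, minus strand), the mitochondrial enzyme that oxidizes 10-formyl folate, had 1.73 and 1.39 TPM in normoxia, 1.33 and 4.51 at day 2 and 3.27 and 1.61 at day 7 in ESCs. In TSCs Aldh1l2 had 1.12 and 0.332 TPM in normoxia, 0.903 and 0.809 at day 2 and 0.435 and 0.254 at day 7. Aldh1l2 in XEN cells had 0.858 and 1.48 TPM in normoxia, 1.27 and 1.02 at day 2 and 2.95 and 1.68 at day 7. Aldh1l2 was the least abundant member, and in ESCs its day 2 replicates lay on either side of normoxia.

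Gldc (chr19:30098447-30175429, minus strand), the glycine decarboxylase, had 66.8 and 61.0 TPM in normoxia, 66.9 and 78.9 at day 2 and 73.3 and 67.6 at day 7 in ESCs. In TSCs Gldc had 5.43 and 10.5 TPM in normoxia, 27.6 and 16.2 at day 2 and 4.70 and 4.81 at day 7. Gldc in XEN cells had 56.3 and 23.3 TPM in normoxia, 18.1 and 16.4 at day 2 and 9.27 and 9.05 at day 7. In ESCs the lowest hypoxic library lay just above the higher normoxic one. In TSCs both day 2 libraries were above all others, whereas in XEN cells the libraries fell into the order normoxia, day 2 and day 7 with no overlap.

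In ESCs, none of the 10 enzyme genes was DE on day 2 (limma, 1 member at an unadjusted p below 0.05, and 0 called by voom on the recovered reads), on day 7 (0 and 0), or between day 7 and day 2 (0 and 0). Of all tested genes, 0%, 0.758% and 0.179% were DE in these comparisons, and 5.05%, 8.04% and 4.26% were at an unadjusted p below 0.05. No member passed 1.5-fold on the log2(TPM + 0.5) scale either, against 3.59%, 5.85% and 3.15% of all tested genes. The ratio of the hypoxic to the normoxic mean TPM of Aldh1l2, a low gene whose change this scale understates, was 1.87 on day 2 and 1.56 on day 7. On day 2 the log2 fold changes ran from -0.20 for Shmt1 to 0.56 for Aldh1l2, with a median of 0.26 over the members and 0.010 over all tested genes. The member with an unadjusted p below 0.05 was Shmt2, whose log2 fold change was 0.52 ± 0.20 (SE; limma, adjusted p = 0.958). On day 7 they ran from -0.19 to 0.46, with a median of 0.10 against 0.022 over all tested genes.

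The hypoxic ESC replicates did not behave alike. Day 2 replicate 2 was the highest of the 6 libraries for 8 members (Phgdh, Psat1, Psph, Shmt2, Mthfd2, Mthfd1l, Aldh1l2 and Gldc) and the lowest for the cytosolic pair Shmt1 and Mthfd1. Day 7 replicate 1 was among the 2 highest libraries for the same 8 genes, and day 7 replicate 2 was among the 2 highest for 0. The share of all tested genes with this order of libraries was not computed, so it does not set the enzymes apart from other genes. Day 2 replicate 2 and day 7 replicate 1 also had the most reads (61958573 and 56017126), and day 7 replicate 2 had 39649656. Day 2 replicate 1 had 55134683 reads and was among the 2 highest for 0 members. The part of depth was not tested. Atf4, a transcription factor known to drive serine synthesis genes, had 1148 and 1124 TPM in normoxia, 1304 and 1745 at day 2 and 1488 and 1080 at day 7. Asns, a known target of ATF4 that was picked after its values were seen, had 238 and 201 TPM in normoxia, 232 and 321 at day 2 and 301 and 210 at day 7. Both were highest in day 2 replicate 2 and next highest in day 7 replicate 1, as were Chac1 and Ddit3 of the other 3 genes of this response that were picked likewise, while Trib3 was highest in the former but next highest in day 2 replicate 1 (118 TPM, and 108 in day 7 replicate 1). These picked genes are not independent evidence of the order. The hypoxia gene Bnip3 had the same 2 libraries at the top (12.0 and 12.7 TPM in normoxia, 29.0 and 74.9 at day 2 and 61.3 and 31.2 at day 7). So did the hypoxia genes Slc2a1, Ldha, Pdk1, Pgk1, Egln3 and Ankrd37, while Car9 was highest in normoxia replicate 1 (1.31 TPM). Nfe2l2, a regulator of antioxidant genes, also had these libraries at the top (43.8 and 35.3 TPM). Myc was highest in normoxia replicate 1 (410 TPM). The part of any of these genes in the levels of the enzymes was not tested. Without day 2 replicate 1, Aldh1l2 (log2 fold change 1.29 ± 0.32, adjusted p = 0.0796, limma) and Shmt2 (0.79 ± 0.19, adjusted p = 0.0772, limma) were DE on day 2, as were 493 genes in all, with day 2 then resting on 1 library that was assumed to vary like the others.

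In TSCs, 0 members were DE on day 2 (limma, 2 at an unadjusted p below 0.05, 0 called by voom) and 0 on day 7 (2 and 0), where 0.200% and 0.385% of all tested genes were DE. At an unadjusted p below 0.05 were 13.1% and 10.4% of all tested genes. Gldc and Mthfd1l were the 2 members past 1.5-fold on day 2, which 19.1% of all tested genes were. Gldc had a mean 2.75 times the normoxic one, with a log2 fold change of 1.42 ± 0.38 (SE; limma, adjusted p = 0.230). Mthfd1l had a mean 1.95 times the normoxic one (0.85 ± 0.24; limma, adjusted p = 0.241). On day 7, Shmt2 (-0.68 ± 0.17; limma, adjusted p = 0.254) and Gldc (-0.62 ± 0.38; limma, adjusted p = 0.621) were past 1.5-fold and below normoxia, while 15.9% of all tested genes passed 1.5-fold. Within 1.5-fold on this scale, but not by the ratio of means, were Aldh1l2 (2.11 times higher in normoxia, log2 fold change -0.47) and Phgdh (1.55 times higher in normoxia, -0.56). In both, normoxia replicate 1 stood far above replicate 2 (1.12 against 0.332 TPM for Aldh1l2, 32.2 against 18.6 for Phgdh). Day 7 had 0.435 and 0.254 TPM for Aldh1l2 and 16.2 and 16.6 for Phgdh. Normoxia replicate 1 also had the highest sum of feeder markers (1844 TPM), whose part was not tested. Both day 7 libraries were below both normoxic ones for 8 of the 10 members, the exceptions being Psph and Aldh1l2, and this held for 32.3% of all tested genes.

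Between day 2 and day 7, 5 of the 10 members fell in TSCs and 0 rose, where 13.8% of all tested genes were DE and lower. They were Gldc (log2 fold change -2.04 ± 0.38; limma, adjusted p = 0.0302), Mthfd1l (-1.08 ± 0.24; adjusted p = 0.0428), Shmt1 (-0.84 ± 0.24; adjusted p = 0.0762), Psat1 (-0.68 ± 0.20; adjusted p = 0.0871) and Mthfd2 (-0.64 ± 0.19; adjusted p = 0.0913). The mean of Gldc was 4.61 times higher on day 2 than on day 7, and that of Mthfd1l 2.37 times higher. Phgdh (-0.70 ± 0.29; adjusted p = 0.164) and Aldh1l2 (-0.69 ± 0.36; adjusted p = 0.260) brought the members past 1.5-fold and lower to 7, against 26.7% of all tested genes. For all 10 members both day 7 libraries were below both day 2 libraries, which held for 44.9% of all tested genes. The median log2 fold change was -0.68 over the members and -0.24 over all tested genes.

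The whole table was shifted in this comparison, and the calls on the enzymes depended on it. Median-ratio scaling, which moves the median of all tested genes from -0.24 to 0.012, left Gldc (-1.78, adjusted p = 0.0523) and Mthfd1l (-0.84, adjusted p = 0.0729) as the DE members by limma. The other 8 then ran from -0.56 (Shmt1 and Aldh1l2) to 0.12 (Psph, whose direction turned), and the median over the members was -0.42. The share of DE genes that were lower moved from 85.3% to 57.6%. Median-ratio scaling divided both day 2 libraries by 1.09, day 7 replicate 1 by 0.970 and day 7 replicate 2 by 0.829, so the shift was uneven between the day 7 libraries. Voom on the recovered reads also called Gldc and Mthfd1l alone. Leaving out day 2 replicate 1, day 7 replicate 1 or day 7 replicate 2 left 0 members DE, leaving out day 2 replicate 2 left Gldc, and leaving out either normoxic replicate left 3. Without day 7 replicate 2 no gene of the table was DE. In the same comparison 5 of 6 TSC markers and 6 of 8 hypoxia genes were DE, and the sum of the TSC markers was 938 and 1209 TPM on day 2 and 738 and 653 on day 7. That sum understates the fall of single markers. Mean TPM went from 128 to 37.7 for Cdx2, 370 to 123 for Eomes and 83.8 to 16.8 for Elf5. It went from 28.1 to 7.26 for Esrrb and 69.9 to 35.2 for Gata3, while Tfap2c rose from 393 to 476. The sum of the feeder markers ran from 196 to 947 on day 2 and from 254 to 425 on day 7. Fewer cells of a type and less RNA per cell cannot be told apart in these bulk samples, and the part of these shifts in the enzyme levels was not tested.

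Among the members, Gldc and Mthfd1l had the largest changes between day 2 and day 7 in TSCs, so the 250 bases before the RefSeq start of each are shown. The sequences are from RefSeq (GRCm38.p6), at chr19:30175442-30175691, minus strand (Gldc) and chr10:3972825-3973074, plus strand (Mthfd1l), read 5′ to 3′ along each gene. Capitals mark ACGTG, the core that hypoxia-inducible factors are known to bind, and GCGTG, its common variant, on either strand.
Gldc: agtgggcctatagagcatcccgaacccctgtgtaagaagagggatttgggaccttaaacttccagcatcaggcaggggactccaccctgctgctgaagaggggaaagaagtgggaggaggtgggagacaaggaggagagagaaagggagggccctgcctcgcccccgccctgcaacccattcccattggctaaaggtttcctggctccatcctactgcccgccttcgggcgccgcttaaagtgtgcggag
Mthfd1l: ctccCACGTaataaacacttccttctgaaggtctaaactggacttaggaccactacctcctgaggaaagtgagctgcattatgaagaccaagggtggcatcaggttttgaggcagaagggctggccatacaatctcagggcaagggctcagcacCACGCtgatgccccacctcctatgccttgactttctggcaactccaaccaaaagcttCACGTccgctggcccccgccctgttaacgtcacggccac
Mthfd1l held ACGTG 2 times and GCGTG 1 time, and Gldc held neither. Of the 9 members with a promoter in the RefSeq table (Aldh1l2 is the other one), 2 held ACGTG in these 250 bases (Mthfd1l and Psph), as did 16.6% of all 32851 promoters. GCGTG was in 6 (Mthfd1, Mthfd1l, Phgdh, Psat1, Psph and Shmt1), against 28.2% of all promoters. CACGTG, the E-box bound by MYC, which contains ACGTG, was in 0 of the 9 against 6.02%, and TGATGNAA, the composite element bound by ATF4 and its partners, was in 0 of the 9 against 3.45%. Psat1 has 2 starts in the table, each with 2 copies of GCGTG. Members were counted by gene but the shares by promoter, and a gene can have several promoters. The counts and shares are thus unlike units and were not tested against each other. The RefSeq start lay inside the gene as annotated by GENCODE for several members, so that the window was wholly within that gene for 3 (Mthfd2, Psat1 and Shmt1) and partly for 2 (196 of 250 bases for Psph and 21 for Phgdh). For Gldc and Mthfd1l it lay outside. These are matches of letters within the window and not measured sites.

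In XEN cells, 0 members were DE on day 2 (limma, 2 at an unadjusted p below 0.05, 0 called by voom), on day 7 (3 and 0) or between day 7 and day 2 (3 and 0), where 0%, 0.110% and 0.0367% of all tested genes were DE. At an unadjusted p below 0.05 were 7.77%, 9.01% and 11.9% of all tested genes. Past 1.5-fold were 1 member on day 2 (Gldc), 2 on day 7 (Gldc lower and Aldh1l2 higher) and 4 between the days (Gldc, Aldh1l2, Phgdh and Psph). Of all tested genes, 8.69% passed it on day 2 and 12.5% between the days, and on day 7 3.64% did so lower and 6.41% higher. Gldc had the largest differences. Its mean was 2.31 times higher in normoxia than on day 2 (log2 fold change -1.05 ± 0.37; limma, adjusted p = 0.587) and 4.35 times higher than on day 7 (-1.93 ± 0.37; limma, adjusted p = 0.219). Its normoxic replicates (56.3 and 23.3 TPM) differed more from each other than the replicates of either hypoxic condition did. Without normoxia replicate 2, Gldc was DE on day 7 (-2.56 ± 0.24; limma, adjusted p = 0.0125), as were 195 genes in all, with normoxia then resting on 1 library that was assumed to vary like the others. Without normoxia replicate 1 the log2 fold change of Gldc was -1.30 on day 7 (limma, adjusted p = 0.201) and -0.43 on day 2 (limma, adjusted p = 0.778). The log2 fold change of Aldh1l2 on day 7 was 0.74 ± 0.31 (limma, adjusted p = 0.551). Between day 7 and day 2, Phgdh (0.87 ± 0.31; limma, adjusted p = 0.402) and Psph (0.79 ± 0.32; limma, adjusted p = 0.412) were higher on day 7 without passing the test. Shmt1, at -0.43 ± 0.14 on day 2 and -0.52 ± 0.14 on day 7 (limma, adjusted p = 0.558 and 0.389), was within 1.5-fold.

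A single XEN library also stood high. Day 7 replicate 1 was the highest of the 6 for 6 members (Phgdh, Psat1, Psph, Shmt2, Mthfd2 and Aldh1l2) and the lowest for the cytosolic Shmt1 and Mthfd1. How many of all tested genes were highest in this library was not counted either. Atf4 in XEN cells had 1271 and 1406 TPM in normoxia, 1116 and 1234 at day 2 and 1891 and 1265 at day 7. Asns had 164 and 182 TPM in normoxia, 172 and 161 at day 2 and 329 and 177 at day 7. Chac1, another known ATF4 target picked after its values were seen, had 6.25 and 10.9 TPM in normoxia, 7.15 and 7.54 at day 2 and 71.8 and 7.30 at day 7. All 3 were highest in day 7 replicate 1, as was Trib3 (50.2 TPM), whereas Ddit3 had 34.7 TPM there and 34.8 in normoxia replicate 2. Myc was also highest in day 7 replicate 1 of XEN cells (168 TPM), while Nfe2l2 was highest in day 2 replicate 1 (29.1 TPM). The part of these genes in the enzyme levels of XEN cells was not tested. In TSCs, Atf4 ran from 863 to 1083 TPM over the 6 libraries and Nfe2l2, a regulator of antioxidant genes, from 30.0 to 53.5. Myc, which is known to drive nucleotide synthesis, had 540 and 532 TPM in normoxia, 314 and 353 at day 2 and 362 and 337 at day 7 in TSCs, with the 4 hypoxic libraries below both normoxic ones.

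**Figure D2:**
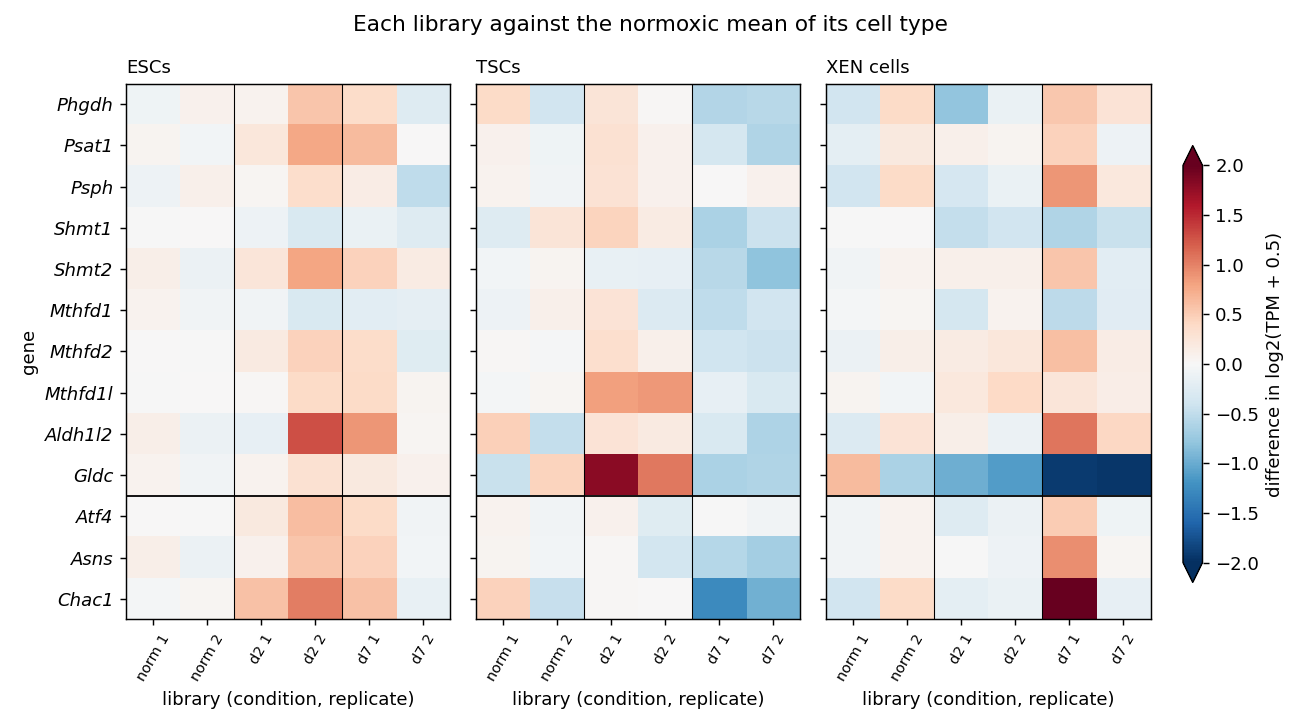
Difference in log2(TPM + 0.5) of each library (columns: normoxia, day 2 and day 7, replicates 1 and 2) from the normoxic mean of its cell type, for the 10 members and, below the line, Atf4, Asns and Chac1; differences beyond 2 are drawn at the end of the scale. Day 2 replicate 2 and day 7 replicate 1 of ESCs and day 7 replicate 1 of XEN cells are red for most members except Shmt1 and Mthfd1, and Gldc is red on day 2 in TSCs and blue throughout hypoxia in XEN cells.

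**Figure D3:**
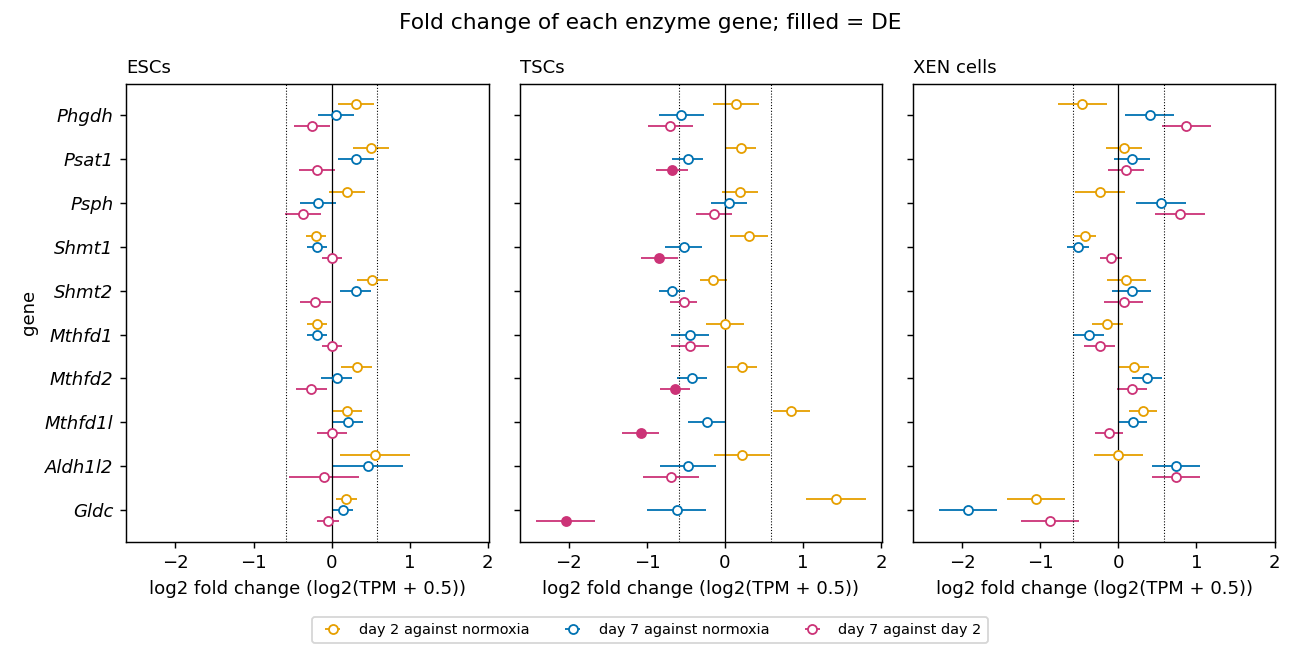
Log2 fold change (x axis, on log2(TPM + 0.5), with SE bars) of each member in the 3 comparisons of each cell type; filled points are DE, and dotted lines mark 1.5-fold. The 5 filled points are Gldc, Mthfd1l, Shmt1, Psat1 and Mthfd2 for day 7 against day 2 in TSCs.

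The balance of mitochondrial and cytosolic enzymes was followed as a ratio within each library, on the exon-length scale. The ratio of Shmt2 to Shmt1 in ESCs was 1.76 and 1.49 in normoxia, 2.04 and 3.46 at day 2 and 2.44 and 2.16 at day 7. In XEN cells it was 1.46 and 1.61, 2.31 and 2.16, and 3.42 and 1.82 in the same order. In TSCs it was 1.63 and 1.23 in normoxia and 0.930 and 1.13 at day 2, and the day 7 libraries overlapped normoxia. All 4 hypoxic libraries were thus above both normoxic ones in ESCs and XEN cells, and in TSCs both day 2 libraries were below them. The log2 difference from normoxia in ESCs was 0.71 for day 2 and 0.50 for day 7, that in XEN cells 0.54 and 0.70, and that in TSCs -0.46 and -0.15.

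The ratio of Mthfd1l to Mthfd1 was above normoxia in all hypoxic libraries of ESCs (0.380 and 0.583 on day 2, and 0.537 and 0.415 on day 7, against 0.337 and 0.374) and of XEN cells (0.511 and 0.431, and 0.586 and 0.440, against 0.361 and 0.316). In TSCs it was 0.240 and 0.223 in normoxia, 0.365 and 0.555 at day 2 and 0.289 and 0.235 at day 7. The TSC ratio was thus high on day 2 and overlapped normoxia on day 7. The ratio of Mthfd2 to Mthfd1 in XEN cells was 0.424 and 0.472 in normoxia, 0.647 and 0.498 at day 2 and 0.982 and 0.582 at day 7, with all hypoxic libraries above normoxia. In ESCs it was above normoxia on day 2 (0.421 and 0.607 against 0.339 and 0.368) and overlapped it on day 7, and in TSCs it overlapped normoxia on both days. With 2 libraries against 2, the exact permutation test, two-sided, gave p = 0.333 wherever the libraries did not overlap, which is the smallest p this design allows. None of these ratios could therefore pass a threshold of 0.05.

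**Figure D4:**
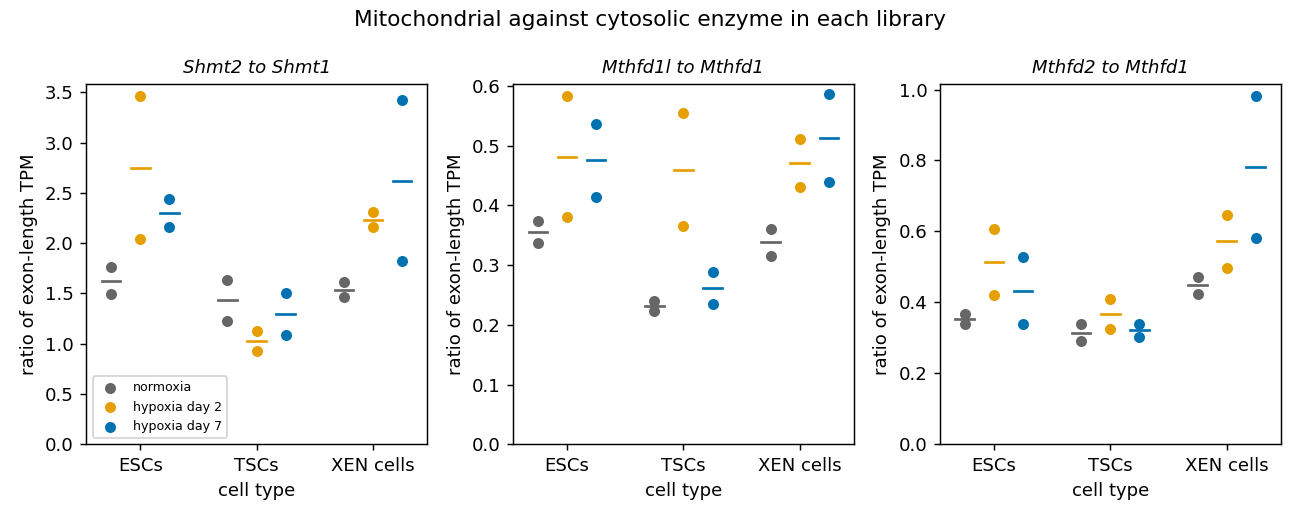
Ratio of exon-length TPM of the mitochondrial to the cytosolic enzyme gene in each library (points), with the mean of 2 replicates (bars), by cell type and condition. For Shmt2 to Shmt1 and Mthfd1l to Mthfd1, all hypoxic libraries of ESCs and XEN cells lie above the normoxic ones, whereas in TSCs Mthfd1l to Mthfd1 lies above them on day 2 alone.

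Of 39 other genes of these pathways, the test covered 36 in ESCs, while it covered 34 in TSCs and 33 in XEN cells. None was DE by limma or by voom in hypoxia against normoxia in any cell type. At an unadjusted p below 0.05, ESCs had 2 for day 2 and 1 for day 7, TSCs had 4 and 7, and XEN cells had 2 and 6. Of all tested genes, 5.05% and 8.04% were below that p in ESCs. The TSC shares were 13.1% and 10.4%, those of XEN cells 7.77% and 9.01%. Between day 7 and day 2, 0 were DE by either tool in ESCs (0 at an unadjusted p below 0.05) and in XEN cells (6). In TSCs, 10 were DE between day 2 and day 7, all lower on day 7, where 13.8% of all tested genes were DE and lower. The median log2 fold change was -0.27 over the 34 and -0.24 over all tested genes. Voom on the recovered reads called 8 of the 34, of which 6 were among the 10 (Cbs, Paics, Ppat, Slc1a5, Sfxn1 and Mat2b) and 2 were higher on day 7 (Slc46a1 and Mat2a). Cbs, which draws homocysteine into cysteine synthesis, had the largest of these (-1.97 ± 0.40; limma, adjusted p = 0.0356), with 9.67 and 14.5 TPM in normoxia, 32.2 and 14.3 at day 2 and 5.13 and 5.11 at day 7. Gcat, which completes threonine breakdown to glycine, followed (-1.10 ± 0.24; limma, adjusted p = 0.0416), and its levels were 4.56 and 4.70 TPM in normoxia, 8.99 and 9.09 at day 2 and 3.54 and 4.40 at day 7. For Gcat both day 2 libraries stood above all others, as for Gldc, and for Cbs day 2 replicate 2 overlapped normoxia. Gcat was not called by voom (-1.06 ± 0.35, adjusted p = 0.104). Paics (-1.07 ± 0.21; limma, adjusted p = 0.0330), Ppat (-0.78 ± 0.18; limma, adjusted p = 0.0464) and Pfas (-0.68 ± 0.19; limma, adjusted p = 0.0731) were 3 of the 6 genes of purine synthesis. The transporters Slc1a5 (-0.92 ± 0.22; limma, adjusted p = 0.0543) and Sfxn1, which carries serine into mitochondria (-0.78 ± 0.20; limma, adjusted p = 0.0638), were 2 of the 6 tested transport genes. Folate uptake and retention gave Folr1 (-0.74 ± 0.22; limma, adjusted p = 0.0897) and Fpgs (-0.87 ± 0.27; limma, adjusted p = 0.0919) of 6, and the methionine cycle gave Mat2b (-0.78 ± 0.20; limma, adjusted p = 0.0611) beside Cbs of 7. None of the 5 tested genes of folate interconversion was DE. With median-ratio scaling 5 of the 34 were DE (Cbs, Gcat and Paics lower, and Slc46a1 and Mat2a higher), and leaving out single libraries gave between 0 and 10.

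In the other comparisons the largest difference among these 39 genes did not pass the test. In ESCs these were Slc6a9 on day 2 (log2 fold change 0.61), Cbs on day 7 (-0.57) and Folr1 between the days (0.56). In TSCs they were Mat2a on day 2 (-0.95) and Cbs on day 7 (-1.14). In XEN cells they were Folr1 on day 2 (0.79), Gcsh on day 7 (-1.11) and Tdh between the days (-1.11). Gcsh carries the intermediates of the glycine cleavage system, and in XEN cells it had 287 and 256 TPM in normoxia, 203 and 204 at day 2 and 90.7 and 173 at day 7. Both its day 7 libraries were below the other 4, as they were for Gldc. This also held for Dld (59.3 and 83.6 TPM at day 7) of the glycine cleavage genes, but not for Amt. Amt had 6.78 and 7.19 TPM in normoxia, 3.47 and 6.72 at day 2 and 8.71 and 6.69 at day 7. The share of all tested genes with such day 7 libraries in XEN cells was not computed. Tdh, the threonine dehydrogenase, had between 206 and 306 TPM in ESCs, at most 1.56 in XEN cells, and was not listed in TSCs.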

How the data were processed

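RNA-seq of ESCs, TSCs and XEN cells was used, with 2 replicates per condition. Per the study's methods and the submitters' processing notes (cutadapt 2.4, STAR 2.7.5a, featureCounts, mm10), the authors trimmed, aligned and counted reads, filtered for protein-coding genes with more than 0.4 CPM in 2 or more libraries, and deposited TPM in a separate table per cell type. The columns named day 0 were taken as normoxia. Each deposited TPM multiplied by the gene span (GENCODE annotation of GRCm38) gave a whole read number within 0.05 for 98.7% to 98.9% of values, and for about 10% with exon length; these reads served for depth, exon-length TPM and an alternative.

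Genes above 0.4 TPM in at least 2 of 6 libraries were tested: 12271 genes of the ESC table, 12481 of the TSC table and 10894 of the XEN table. limma 3.58.1 (R 4.3.3) was applied to log2(TPM + 0.5), with a mean-variance trend and the 6 libraries of a cell type in each fit, and p-values were Benjamini-Hochberg adjusted over all tested genes. Fold changes on this scale understate those of low genes. The study's methods call the replicates biological. On simulated data with 200 genes changed 4-fold, at least 98.5% were found (the lowest in XEN cells at a dispersion of 0.05), beside 10 to 34 false calls (the highest in ESCs at that dispersion). The simulated spread was set in advance and not taken from these libraries, so this share does not carry over to them. In ESCs on day 2 the hypoxia genes Egln3 (4.71 times the normoxic mean) and Bnip3 (4.22 times) were not DE (limma, adjusted p = 0.522 for both).

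All 10 members are given in every library; statistics are given for members DE or past 1.5-fold, and for the other pathway genes those DE and the largest change per comparison. Members, lists and regulators were chosen with earlier results of these data known. Alternatives were pseudocounts of 0.1 and 1, no filter, a filter at 1 TPM, median-ratio scaling, a replicate block, no trend, the 4 libraries compared, single libraries left out, voom on recovered reads, exon-length TPM, an adjusted p of 0.05 and no fold threshold. Ratios were tested with exact permutation (scipy 1.17.1), and figures drawn with matplotlib 3.10.9. Protein sequences were not used here.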

Additional observations from a re-analysis of the deposited data

Results flagged for a closer look

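With 2 libraries per condition, single outlying libraries could not be tested. The following members had both libraries of a condition above both of the other in 1 cell type and below both in another. The share of all tested genes that met this rule was not computed, so the list does not set the enzymes apart from other genes. Libraries that do not overlap are common: between day 2 and day 7 in TSCs, 44.9% of all tested genes had both day 7 libraries below both day 2 libraries. The differences between cell types were not tested, since tests were kept within a table. Values are differences between log2 fold changes, the cell type named first minus the other.

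Gldc on day 2 against normoxia differed by 2.48 between TSCs (1.42) and XEN cells (-1.05) and by 1.24 between ESCs (0.19) and XEN cells. In ESCs its lower day 2 library (66.9 TPM) barely exceeded its higher normoxic one (66.8 TPM). Gldc on day 7 against normoxia differed by 2.07 between ESCs (0.14) and XEN cells (-1.93) and by 0.76 between ESCs and TSCs (-0.62). Between day 7 and day 2, the difference between TSCs and XEN cells was -1.57 for Phgdh (-0.70 and 0.87), -1.43 for Aldh1l2 (-0.69 and 0.74) and -0.93 for Psph (-0.14 and 0.79). For Psph the direction in TSCs turned with median-ratio scaling (0.12).

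Shmt2 on day 2 differed by 0.67 between ESCs (0.52) and TSCs (-0.15) and by -0.26 between TSCs and XEN cells (0.10), and on day 7 by 0.99 between ESCs (0.31) and TSCs (-0.68). Mthfd2 on day 7 differed by -0.79 between TSCs (-0.42) and XEN cells (0.37). Mthfd1l on day 7 differed by 0.44 between ESCs (0.21) and TSCs (-0.23) and by -0.42 between TSCs and XEN cells (0.19).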

How the results depend on the processing

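The count of DE members was unchanged or within 1.5 times in 157 of 171 pairs of a comparison and an alternative, most of them with a count of 0 in both. The exceptions were mainly TSCs between day 2 and day 7, where 5 members were DE: median-ratio scaling gave 2, voom on recovered reads 2, an adjusted p of 0.05 gave 2, no mean-variance trend 3, and the 4 libraries alone 3. Leaving out single libraries gave 0 to 3 there, 0 to 2 in ESCs on day 2 and 0 to 1 in XEN cells on day 7, and 0 in the other 6 comparisons. None of the 18 fold changes past 1.5-fold reversed under any alternative. Median-ratio scaling turned the sign of 6 of all 90 member differences, Psph in TSCs between day 2 and day 7 (-0.14 to 0.12) and 5 that lay within 0.01 of 0 (Shmt1, Mthfd1 and Mthfd1l in ESCs between the days, Mthfd1 in TSCs on day 2 and Aldh1l2 in XEN cells on day 2). Over all tested genes, calls between day 2 and day 7 in TSCs ran from 0 to 2215 with single libraries left out and from 922 to 2778 otherwise (2019 as reported), and in the other 8 comparisons from 0 to 493 over all alternatives (0 to 93 as reported). The cause of these changes was not tested.

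Replicates share numbers across conditions. The deviations of same-numbered libraries correlated between -0.46 and 0.27 over the 9 pairs of conditions, which does not show a pairing by number. The -0.46 was between normoxia and day 2 of TSCs, where same-numbered libraries tended to deviate in opposite directions. The sum of the feeder markers crossed there too (1844 and 260 TPM in normoxia, 196 and 947 at day 2). With the replicate number as a block, 4 members were DE in TSCs between day 2 and day 7 and 0 in each of the other 8 comparisons. With the day 2 numbers swapped, an alternative added after the data were seen, 5 were DE there, 1 in TSCs on day 2 and 0 elsewhere. The 1 was Gldc (log2 fold change 1.42 ± 0.29; limma, adjusted p = 0.0630). Over all tested genes, this block took the DE genes from 25 to 326 in TSCs on day 2 and from 48 to 220 on day 7. In ESCs on day 7 they went from 93 to 211, and in XEN cells on day 7 they stayed at 12. A source of variation shared by these libraries was not tested. Aldh1l2 rested on the fewest reads, with 49 in its lowest library.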
